A study of Homo sapiens with 8 samples.

Results

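ATF4 and 9 genes of its stress program, ATF5, DDIT3, TRIB3, CHAC1, SESN2, DDIT4, CEBPB, CEBPG and STC2, were followed in RNA-seq of leukemia cells that had become resistant to an auxin-inducible degron. The 10 genes were chosen by symbol, 1 row for each, from the 60754 rows of the deposited table, and all 10 were among the 15614 genes expressed enough to be tested. They were selected on a readout, since their lower RNA in resistant than in parental cells was known when the set was put together. Their values in that comparison are therefore a description, in which confidence intervals show the size and spread of a difference, and the count of genes past the threshold for all genes is no evidence for the set.

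The cells were SEM, an established human line of B-cell acute lymphoblastic leukemia (B-ALL) with a rearranged KMT2A gene. In CTCF AID2 SEM cells both alleles of CTCF carry a C-terminal miniAID-mClover3 tag, and a lentiviral cassette expresses OsTIR1(F74G) and Zeocin resistance from the MND promoter. OsTIR1(F74G) joins tagged protein to a ubiquitin ligase when the auxin analog 5-Ph-IAA is present, so that CTCF is degraded. The clones C17.2 and C3.2, each grown from a single edited cell, gave 2 parental libraries and 2 resistant libraries each, 8 libraries in all. Parental cells were untreated. Resistant cells had received 1 µM 5-Ph-IAA and 100 µg/ml Zeocin until day 36, and the drugs were then withdrawn before RNA was taken. Resistant C17.2 cells express a shortened CTCF from a nonsense mutation. In the study's immunoblots they also regained full-length tagged CTCF once auxin was removed. Resistant C3.2 cells carry a missense mutation in the miniAID tag. Drug exposure, withdrawal and mutation therefore cannot be told apart within a clone. The sample titles of the 2 clones begin with separate runs of numbers, whose meaning is not given, so that clone and whatever those numbers stand for cannot be told apart either.

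ATF4 is a transcription factor of the basic leucine zipper (bZIP) class and the main output of the integrated stress response. When kinases sense lack of amino acids, misfolded protein in the endoplasmic reticulum, lack of heme or double-stranded RNA, they phosphorylate the translation factor eIF2α, which slows most protein synthesis but favors translation of ATF4 mRNA. ATF4 protein pairs with C/EBP factors at composite sites called C/EBP-ATF response elements and raises transcription of genes for amino acid supply, tRNA charging, redox balance and, under lasting stress, cell death. The level of ATF4 mRNA is thus only one part of ATF4 activity, and the protein was not measured in these data.

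Values are TPM, the abundance of transcripts corrected for gene length and scaled to the same total in every library. TPM keep no sequencing depth, so no counting error can be given, and precision rests on the 2 libraries of a group. Nothing in the sources states that these came from separate cultures, and tests then measure only the spread between libraries. Log2 differences are between group means of log2(scaled TPM + 1), with scaling factors of 0.893 to 1.16, and understate the change of genes with low TPM. A gene is called when limma gives a Benjamini-Hochberg adjusted p under 0.05 over all genes tested. Replicate libraries correlated across genes with Pearson's r of 0.968 to 0.979 (genes are not independent replicates). The members' replicates differed by a median of 0.025 to 0.13 on the log2 scale, and most for CHAC1 in resistant C3.2 cells, at 0.38. RNA of the tagged gene, CTCF, was 33.7 to 35.4 TPM in parental and 51.1 to 54.7 TPM in resistant cells of C17.2, and 32.2 to 32.3 TPM and 41.5 to 44.2 TPM in C3.2. Of 11 B-lineage leukemia markers 10 were at or above 1 TPM in every library, and BLNK was below 1 TPM in all. Markers of other cells were low. The 5 erythroid markers summed to at most 0.59 TPM and the 5 myeloid markers to 2.26 to 4.39 TPM, and of the 5 T cell markers only TRAC exceeded 1 TPM, at 38.6 to 49.2 TPM. Of the 5 stromal and epithelial markers 3 were at 0 in all libraries, and COL1A1 was at 2.24 to 7.45 TPM. Some B-lineage markers moved with the groups. IGLL1, CD79B and CD79A were called lower in resistant cells of both clones, VPREB1 was called lower in C3.2, and PAX5 was called higher in C3.2, by 0.27 on the log2 scale. IGLL1 was at 80.6 to 166 TPM in the parental and at 20.1 to 31.7 TPM in the resistant libraries, and CD79B at 12.2 to 15.3 TPM and at 4.33 to 7.49 TPM. The part of these markers in the results was not tested. In bulk RNA, fewer cells that express a gene and less RNA per cell cannot be told apart.

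The DNA letters that ATF4 and C/EBP proteins read together were looked for around the starts of the members, since such sites are what targets of ATF4 are known for. A window of 1200 bases, 1000 before and 200 from the RefSeq start, was read from GRCh38 and searched on both strands for TGATGNAA (reverse complement TTNCATCA), the letters of the C/EBP-ATF response element. The motif, and the window, were chosen after the expression values were known. The motif was in a window of 7 of the 10 members and of 16.9% of all 27305 genes with a window. A gene with several RefSeq starts had several windows and counted when any of them matched. The 10 members had 18 windows, and all 27305 genes had 35116, so that more sequence was searched per member. One 30-base stretch for each of these 7 genes is given here on the gene's own strand, 5′ to 3′, with the matching 8 letters in capitals.
CHAC1: ctcccctgccgTTGCATCActcctgccagg
DDIT3: gttgccaaacaTTGCATCAtccccgccccc
TRIB3: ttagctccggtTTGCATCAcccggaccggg
SESN2: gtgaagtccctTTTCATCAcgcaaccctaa
CEBPG: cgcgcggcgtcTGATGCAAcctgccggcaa
DDIT4: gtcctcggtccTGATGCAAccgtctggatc
STC2: cctcctggaaaTGATGCAAgtcctgactgt
The TRIB3 stretch occurs 3 times without a change of letter, at chr20:380881-380910, chr20:380914-380943 and chr20:380947-380976, spaced by 33 bases and lying 403, 370 and 337 bases before a start, in an exon of a longer TRIB3 transcript. The CHAC1 stretch (chr15:40953251-40953280) begins its match 209 bases before a start, in an exon of a longer CHAC1 transcript. That of DDIT3 (chr12:57520802-57520831, reverse strand) lies 306 bases before a start, within an intron of a longer DDIT3 transcript and of MBD6. That of CEBPG (chr19:33374060-33374089) lies 42 bases before a start, in an intron of a longer CEBPG transcript. The matches of SESN2 (chr1:28259211-28259240) and STC2 (chr5:173329148-173329177, reverse strand), 296 and 752 bases before the start, lie between annotated genes. The DDIT4 match (chr10:72272967-72272996), 946 bases before the start, lies in an exon of an unnamed long non-coding RNA gene (ENSG00000289506). No match was in the windows of ATF4, ATF5 or CEBPB. Of other ATF4 program genes, 8 of 10 aminoacyl-tRNA synthetase genes with a window held the motif, and 0 of 5 paralogs of members did. Neither TGACGTCA, the cyclic AMP response element (3.15% of all genes), nor TTGCGCAA, a C/EBP site (0.472%), was in a window of any member. A match of letters is a description of the sequence and does not show that a protein binds there.

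In C17.2 all 10 genes were called lower in resistant than in parental cells, where 13.9% of all genes tested were called lower. Their median log2 difference was -2.37, against 0 over all genes, and 9 of the 10 were lower by at least 2-fold on this scale. In C3.2, 6 of the 10 were called lower (ATF4, CHAC1, SESN2, DDIT4, CEBPG and STC2), where 6.90% of all genes were, and the median was -0.49. There 3 of the 10 were lower by at least 2-fold, and 109 of all genes tested were called and as much lower. Both resistant libraries lay below both parental libraries for 10 of 10 genes in C17.2 and for 9 of 10 in C3.2, where the same held for 32.7% and 28.1% of all genes tested. The genes were chosen for this direction, so these shares describe the set and give no evidence for it. The 10 genes summed to 935 and 874 TPM in parental C17.2 and to 303 and 307 TPM in resistant C17.2. In C3.2 the sums were 363 and 371 TPM in parental and 257 and 241 TPM in resistant cells. The parental libraries of C17.2 thus stood alone at 874 TPM or more, and the other 6 libraries lay between 241 and 371 TPM.

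**Figure D1:**
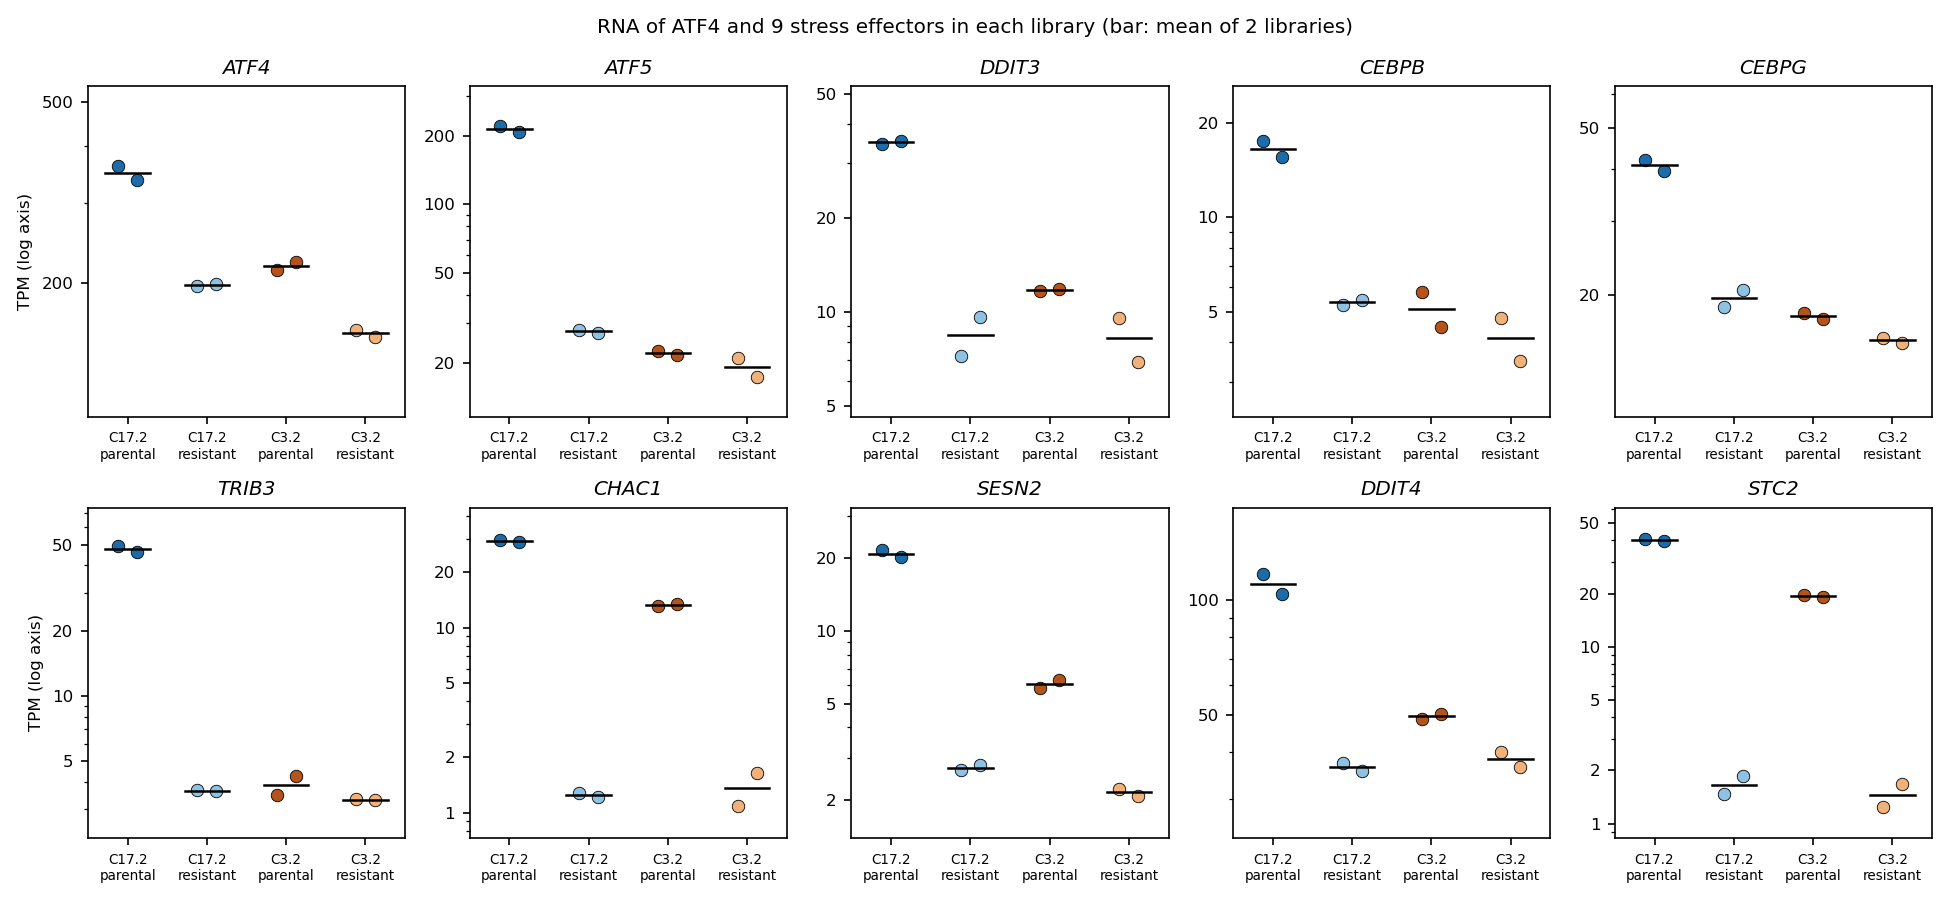
TPM of the 10 genes (log axis, different range in each panel) in each of the 8 libraries, by group, with a bar at the mean of the 2 libraries. In every panel the 2 parental libraries of C17.2 are highest, and STC2, CHAC1 and SESN2 also stand high in the parental libraries of C3.2.

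ATF4 (ENSG00000128272.14, chromosome 22 of GRCh38, 39519695 to 39522683, forward strand) was the most abundant of the 10 in every group. It was at 361 and 337 TPM in parental C17.2, and at 197 and 199 TPM in resistant C17.2. In C3.2 the values were 214 and 222 TPM in parental cells and 158 and 153 TPM in resistant cells. The groups did not overlap within either clone. ATF4 RNA was lower by 0.97 on the log2 scale in C17.2 (difference -0.97, SE 0.037) and by 0.55 in C3.2 (difference -0.55, SE 0.037), which is 1.97-fold and 1.47-fold lower on scaled TPM. ATF4 thus had the smallest log2 difference of the set in C17.2, whereas 6 members had smaller ones in C3.2. Its processed pseudogenes, ATF4P1, ATF4P2, ATF4P3 and ATF4P4, could share reads with it. They reached at most 1.46 TPM, and ATF4P1 and ATF4P2 had the same value in every library.

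The transcription factors of the set differed sharply between the clones. ATF5 (ENSG00000169136.11, chromosome 19, 49928702 to 49933935, forward strand) is a bZIP factor translated under the same stress control as ATF4 and tied to mitochondrial stress. Its RNA was at 221 and 208 TPM in parental C17.2 and at 28.1 and 27.2 TPM in resistant C17.2, a log2 difference of -3.07 (SE 0.076). For C3.2 they were 22.7 and 21.7 TPM in parental and 21.2 and 17.4 TPM in resistant cells. The parental libraries of C3.2 were thus below the resistant libraries of C17.2 in TPM as deposited. On scaled TPM the means of these groups were alike, at 24.5 in parental C3.2 and 24.3 in resistant C17.2. The difference in C3.2 was -0.26 (95% confidence interval -0.45 to -0.08).

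DDIT3 (ENSG00000175197.12, chromosome 12, 57516588 to 57521737, reverse strand) encodes CHOP, a C/EBP-family factor that promotes cell death when stress persists. Its RNA was at 34.6 and 35.4 TPM in parental C17.2 and at 7.20 and 9.66 TPM in resistant C17.2, a difference of -2.09 (SE 0.15). C3.2 cells had 11.7 and 11.9 TPM in the parental state and 9.58 and 6.91 TPM in the resistant state (difference -0.55, 95% confidence interval -0.90 to -0.19). The replicates of both resistant groups spread more than the parental ones.

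The exons of DDIT3 overlap those of other annotated genes, which could share reads with it. AC022506.1, whose exons overlap DDIT3 on the same strand, was listed at 27.9 and 12.5 TPM in parental C17.2 and at 0 in the other 6 libraries. With both genes summed, an alternative chosen after seeing the data, parental C17.2 had 62.5 and 47.9 TPM, and the log2 difference in C17.2 was -2.72 in place of -2.09. MARS, for methionyl-tRNA synthetase, overlaps DDIT3 on the opposite strand and was at 181 and 165 TPM in parental and 91.4 and 88.2 TPM in resistant C17.2. MBD6, also opposite with overlapping exons, was at 25.87 and 24.81 TPM in parental and 22.85 and 21.92 TPM in resistant C17.2. In C3.2 MBD6 was at 15.01 and 16.27 TPM in parental and at 16.44 and 14.13 TPM in resistant cells. Whether the counting used strand is not given in the sources used here, and without strand the reads of the overlap cannot be told apart. The same limit touches ATF5, where NUP62 on the opposite strand was at 43.1 and 46.4 TPM in parental and at 55.5 and 59.5 TPM in resistant C17.2. Sharing of reads between these genes was not tested. CEBPB-AS1, opposite to CEBPB, stayed below 1 TPM in all libraries.

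CEBPB and CEBPG encode C/EBP factors that can pair with ATF4, and CEBPG protein has no activation domain of its own. CEBPB (ENSG00000172216.5, chromosome 20, 50190830 to 50192668, forward strand) was at 17.4 and 15.5 TPM in parental and 5.27 and 5.47 TPM in resistant C17.2, a difference of -1.59 (SE 0.14). In C3.2 its parental values of 5.77 and 4.48 TPM overlapped the resistant values of 4.79 and 3.48 TPM. The difference there was -0.32 (95% confidence interval -0.66 to 0.02). CEBPG (ENSG00000153879.9, chromosome 19, 33373685 to 33382686, forward strand) was at 41.9 and 39.5 TPM in parental and 18.8 and 20.6 TPM in resistant C17.2, a difference of -1.17 (SE 0.053). Parental C3.2 cells had 18.1 and 17.6 TPM, and resistant C3.2 cells 15.8 and 15.4 TPM. This difference, -0.24 (SE 0.053), was the smallest of the 6 called in C3.2, and 10 of 16 alternative ways of processing ended the call.

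Among the effectors, TRIB3 followed the pattern of ATF5. TRIB3 (ENSG00000101255.11, chromosome 20, 362835 to 397559, forward strand) encodes a pseudokinase that binds AKT and restrains ATF4 and CHOP. Its RNA was at 49.4 and 46.4 TPM in parental C17.2, and at 3.67 and 3.63 TPM in resistant C17.2, a difference of -3.51 (SE 0.076), or 14.7-fold lower on scaled TPM. Parental and resistant C3.2 cells, at 3.47 and 4.25 TPM and at 3.34 and 3.30 TPM, were close to each other (difference -0.22, 95% confidence interval -0.40 to -0.04). All libraries but the parental ones of C17.2 thus lay between 3.30 and 4.25 TPM.

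CHAC1 and STC2 were the members with the largest differences in C3.2 as well as in C17.2. CHAC1 (ENSG00000128965.13, chromosome 15, 40952962 to 40956512, forward strand) encodes an enzyme that cleaves glutathione in the cytosol. It was at 29.7 and 28.9 TPM in parental and 1.27 and 1.22 TPM in resistant C17.2, and at 13.03 and 13.5 TPM in parental and 1.09 and 1.63 TPM in resistant C3.2. The log2 differences of -3.83 (SE 0.12) and -2.69 (SE 0.12) were 26.3-fold and 10.1-fold lower on scaled TPM. STC2 (ENSG00000113739.10, chromosome 5, 173314723 to 173328447, reverse strand) encodes the secreted glycoprotein stanniocalcin 2. It was at 40.9 and 39.5 TPM in parental and at 1.47 and 1.85 TPM in resistant C17.2. In C3.2 it was at 19.7 and 19.2 TPM in parental and at 1.24 and 1.67 TPM in resistant cells. The differences of -4.05 (SE 0.11) and -3.15 (SE 0.11) were 27.1-fold and 14.0-fold lower on scaled TPM. Both genes thus ended between 1.09 and 1.85 TPM in all 4 resistant libraries.

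SESN2 and DDIT4 encode brakes on mTORC1, the kinase complex that drives growth when amino acids and energy are at hand. Sestrin 2, from SESN2, also senses leucine, and DDIT4 encodes REDD1. SESN2 (ENSG00000130766.5, chromosome 1, 28259518 to 28282491, forward strand) was at 21.6 and 20.2 TPM in parental and 2.67 and 2.79 TPM in resistant C17.2 (difference -2.66, SE 0.056). The C3.2 values were 5.81 and 6.31 TPM in parental and 2.22 and 2.09 TPM in resistant cells (difference -1.23, SE 0.056). DDIT4 (ENSG00000168209.5, chromosome 10, 72273919 to 72276036, forward strand) was at 117 and 104 TPM in parental and 37.3 and 35.5 TPM in resistant C17.2 (difference -1.73, SE 0.055). In C3.2 it was at 48.7 and 50.2 TPM in parental and at 39.9 and 36.4 TPM in resistant cells (difference -0.43, SE 0.055). For SESN2 the parental libraries of C3.2 lay between the other groups, and for DDIT4 they lay nearer to the resistant ones.

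**Figure D2:**
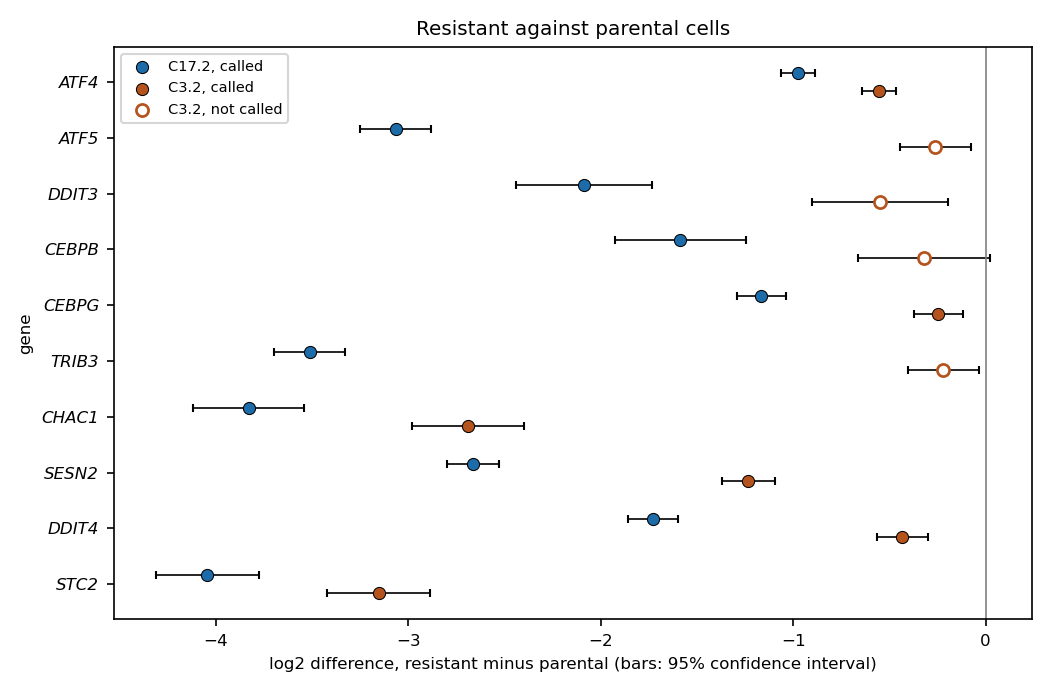
Log2 difference of resistant minus parental cells for each gene (x axis) with its 95% confidence interval, for C17.2 (blue) and C3.2 (orange), filled where the gene was called. All 10 points of C17.2 are filled, and each lies left of the C3.2 point of the same gene. Of the C3.2 points 4 are open.

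The order of the 10 genes by TPM changed between groups. In parental C17.2 the order was ATF4, ATF5, DDIT4, TRIB3, CEBPG, STC2, DDIT3, CHAC1, SESN2 and CEBPB. In parental C3.2 it was ATF4, DDIT4, ATF5, STC2, CEBPG, CHAC1, DDIT3, SESN2, CEBPB and TRIB3, so that TRIB3 went from the fourth place to the last. In resistant cells of both clones the order was ATF4, DDIT4, ATF5, CEBPG, DDIT3, CEBPB, TRIB3, SESN2, STC2 and CHAC1. Neighbors in these orders overlapped between libraries only for CEBPG and STC2 in parental C17.2 and for STC2 and CHAC1 in resistant C3.2.

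A ratio to ATF4 in the same library does not depend on how libraries are scaled. ATF5 was at 61.5% of the TPM of ATF4 in parental C17.2 (mean of 2 libraries) and at 14.0% in resistant C17.2, 10.2% in parental C3.2 and 12.4% in resistant C3.2. TRIB3 was at 13.7%, 1.84%, 1.77% and 2.14% in the same groups. Both were thus high relative to ATF4 in a single group. STC2 was at 11.5% and 8.93% in the parental cells of C17.2 and C3.2, and at 0.838% and 0.94% in the resistant cells. CHAC1 was at 8.40% and 6.08% in parental and at 0.629% and 0.879% in resistant cells. These 2 were thus high in parental cells of both clones. CEBPG moved most closely with ATF4, at 8.19% to 11.7% of ATF4 over the 4 groups, and DDIT4 ranged from 18.4% to 31.6%.

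**Figure D3:**
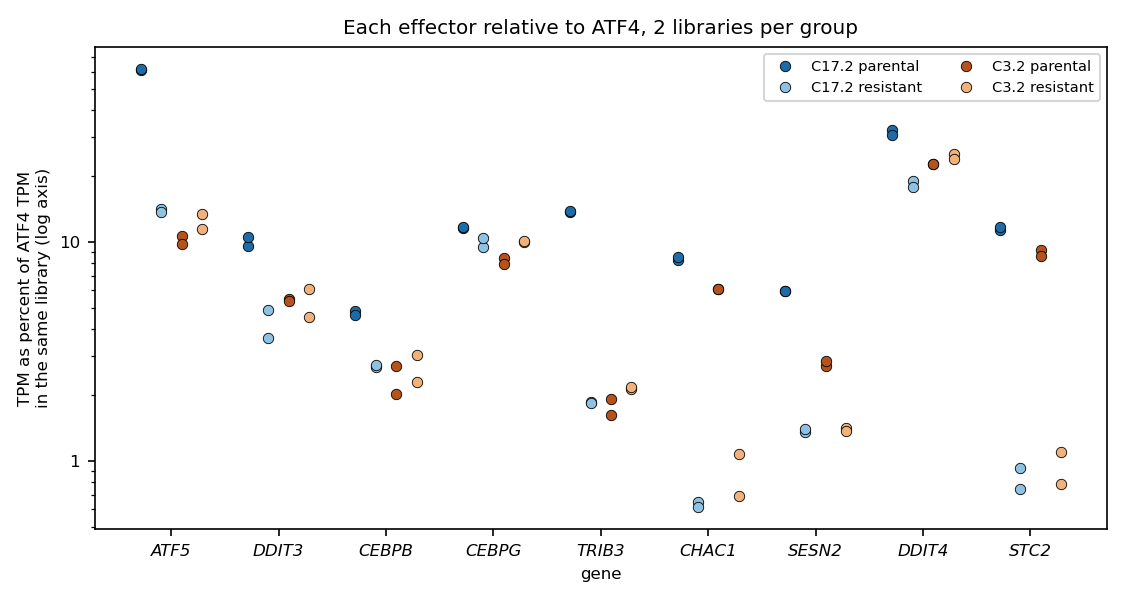
TPM of 9 genes as a percent of ATF4 TPM in the same library (log axis), 2 points per group. ATF5 and TRIB3 are high only in parental C17.2, at 61.5% and 13.7%, whereas CHAC1, SESN2 and STC2 are higher in the parental cells of both clones than in the resistant cells.

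The difference between resistant and parental cells was larger in C17.2 than in C3.2 for each of the 10 genes. The interaction, the change in C17.2 minus that in C3.2, was called below 0 for 10 of 10 genes, where 5.00% of all genes tested were. It ranged from -0.42 (SE 0.052) for ATF4 to -3.29 (SE 0.11) for TRIB3, with -2.80 for ATF5 and -0.89 for STC2, and had a median of -1.28. It is built from the same libraries by which the genes were chosen and so is not independent of that choice. Leaving out 1 library left 6 to 10 genes called, with 6 when either parental library of C17.2 or the second parental library of C3.2 was absent.

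The levels of the clones were then set beside each other within parental and within resistant cells. In parental cells all 10 genes were called higher in C17.2, where 10.5% of all genes were, with a median log2 difference of 1.16. The difference was 3.2 for TRIB3 (95% confidence interval 3.01 to 3.38) and 3.06 for ATF5 (2.87 to 3.24), and 0.51 for ATF4 (0.42 to 0.60). On scaled TPM, TRIB3 was 11.1-fold and ATF5 8.61-fold higher, while ATF4 was 1.43-fold higher. In resistant cells the median difference was 0.01, and the 10 values lay between -0.32 and 0.25. DDIT4 alone was called, lower in C17.2 by 0.32 (difference -0.32, 95% confidence interval -0.45 to -0.19), where 20.3% of all genes were called in either direction. This call was lost under 3 of 16 alternatives. One of them was TPM as deposited, where DDIT4 differed by -0.065 and 4 other members, ATF4, ATF5, SESN2 and CEBPG, were called higher in C17.2. For the other 9 the confidence intervals of the difference reached no further than -0.55 and 0.45. For ATF5 and ATF4 the intervals, 0.07 to 0.44 and 0.0009 to 0.18, lay just above 0. These comparisons use the same libraries as the choice of the genes, and no call in them is independent of it.

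**Figure D4:**
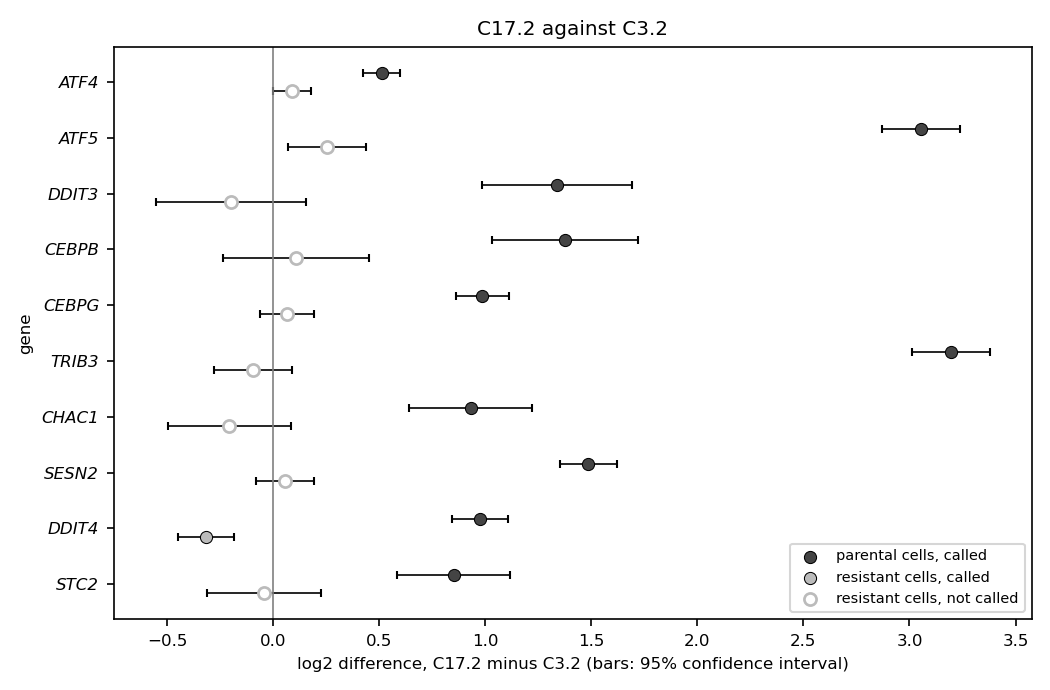
Log2 difference of C17.2 minus C3.2 for each gene (x axis) with its 95% confidence interval, in parental (dark) and resistant cells (light), filled where called. The parental values lie between 0.51 and 3.2, and the resistant values between -0.32 and 0.25.

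Close relatives of the members moved differently. Of 10 listed paralogs 6 were expressed enough to be tested. TRIB1 and TRIB2, relatives of TRIB3, had log2 differences of -0.06 and 0.03 in C17.2 and of -0.10 and -0.11 in C3.2, none called. CHAC2, which cleaves glutathione more slowly than CHAC1, was at 4.59 to 6.98 TPM in the 8 libraries, with differences of 0.18 and 0.05. SESN1, a sestrin under p53 control, rose in both clones, from 13.8 and 12.5 TPM to 25.1 and 28.7 TPM in C17.2 (difference 0.82, SE 0.10) and from 10.6 and 13.02 TPM to 16.8 and 18.1 TPM in C3.2 (difference 0.47, SE 0.10). SESN3 was at 2.99 to 3.97 TPM and was not called. CEBPA, a C/EBP factor of blood cell differentiation, fell in C17.2 by 0.54 (difference -0.54, SE 0.064) and had a difference of -0.01 in C3.2. Over the 6 genes the median was 0.03 in C17.2 and 0.02 in C3.2.

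Other known ATF4 targets gave the following counts. Of 19 tested genes for amino acid uptake and synthesis and one-carbon metabolism, 18 fell and 1 rose in C17.2 (median -1.60), and 16 fell and 0 rose in C3.2 (median -0.63). All 16 were among the 18. Over all genes tested, 13.4% rose in C17.2 and 4.46% in C3.2, beside the shares that fell given above. ASNS, asparagine synthetase, was at 119 and 114 TPM in parental and 17.4 and 19.7 TPM in resistant C17.2 (difference -2.75, SE 0.054). In C3.2 it was at 34.5 and 35.0 TPM in parental and at 14.6 and 13.4 TPM in resistant cells (difference -1.32, SE 0.054). SLC7A11, the cystine importer, fell by 2.94 in C17.2 and by 1.40 in C3.2 on the log2 scale, and SLC6A9, a glycine transporter, fell by 2.91 and by 0.98. ASNS and SLC7A11 thus lay between the resistant levels and those of parental C17.2 in parental C3.2, as SESN2 did.

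All 12 aminoacyl-tRNA synthetases of the list fell in C17.2 (median -1.10), and 8 of them fell in C3.2 (median -0.30). The count in C3.2 dropped by more than 1.5 times, to 5 or fewer, under 13 of 16 other ways of processing. WARS, tryptophanyl-tRNA synthetase, was at 206 and 192 TPM in parental and 26.7 and 30.3 TPM in resistant C17.2 (difference -2.92, SE 0.085). In C3.2 it was at 27.9 and 26.96 TPM in parental and 23.4 and 26.1 TPM in resistant cells (difference -0.21, SE 0.085, not called). Its levels thus had the form of those of ATF5 and TRIB3, with the parental libraries of C17.2 alone high. GARS fell by 1.73 and by 0.55 in C17.2 and C3.2, and CARS fell by 1.74 in C17.2 and had a difference of -0.50 in C3.2, not called.

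Of 24 tested genes of other stress outputs of ATF4 and CHOP, 19 fell and 1 rose in C17.2 (median -0.98), and 13 fell and 2 rose in C3.2 (median -0.34), with 13 lower in both. GPT2, a mitochondrial alanine aminotransferase, was at 54.5 and 53.2 TPM in parental and 9.17 and 7.17 TPM in resistant C17.2, and at 19.3 and 20.0 TPM and 6.02 and 4.54 TPM in C3.2. VLDLR, a lipoprotein receptor, fell by 2.61 in C17.2 and by 1.84 in C3.2. INHBE, an activin subunit, was at 5.26 and 5.02 TPM in parental C17.2 and at or below 0.22 TPM in the other 6 libraries. It reached the 1 TPM needed for testing through parental C17.2 alone, so its fall is not independent of that filter. GPT2 and VLDLR thus fell in both clones, like CHAC1 and STC2, whereas INHBE was expressed in parental C17.2 alone.

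The regulators upstream of ATF4 gave smaller and divided differences. Of 18 tested genes of the eIF2α pathway, 3 fell and 3 rose in C17.2 (median 0.03), and 2 fell and 0 rose in C3.2 (median -0.03). Of this list 1 to 6 rose in C17.2 under the alternatives. PPP1R15A, a stress-induced phosphatase subunit for eIF2α and itself a target of ATF4 and CHOP, was at 28.2 and 25.1 TPM in parental and at 11.4 and 12.1 TPM in resistant C17.2 (difference -1.26, SE 0.099). In C3.2 it was at 8.51 and 8.53 TPM in parental and at 10.97 and 8.26 TPM in resistant cells, which overlapped. PPP1R15A is also counted in the list of other stress outputs. EIF2S3 and EIF2S2, for the γ and β subunits of eIF2, fell by 0.77 and by 0.65 in C17.2 and by 0.28 and by 0.34 in C3.2. Of 9 tested genes for turnover and cofactors of ATF4, KAT2B was the single one called in C17.2, where it fell by 0.52, and its difference of -0.52 in C3.2 was not called. The call of KAT2B was lost under 6 of the 16 alternatives.

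The other bZIP factors did not move as one. Of 36 tested, 13 fell and 4 rose in C17.2 (median -0.17), and 6 fell and 2 rose in C3.2 (median -0.03). JDP2, a repressor of the AP-1 group, fell by 2.06 and by 0.84. ATF3, a stress-induced repressor downstream of ATF4, was at 6.71 and 7.93 TPM in parental and 2.14 and 1.72 TPM in resistant C17.2, and at 3.44 and 3.59 TPM and 1.63 and 1.49 TPM in C3.2. JDP2 and ATF3 are also counted in the list of other stress outputs. FOS, an early response factor, rose in C17.2, from 5.96 and 3.52 TPM to 15.8 and 16.8 TPM (difference 1.47, SE 0.18), and had a difference of 0.51 in C3.2 that was not called.

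Genes listed for mTORC1 and its control gave 4 lower and 5 higher of 25 tested in C17.2 (median 0.06). In C3.2, 2 were lower and 0 higher (median 0.07). Under the alternatives 1 to 4 fell and 1 to 9 rose in C17.2. TXNIP, a brake on glucose uptake, fell by 1.18 and by 0.36, and SEC13 and BMT2 rose in C17.2 by 0.45 and by 0.40. TXNIP is also counted in the list of other stress outputs. Most listed targets of ATF6 and IRE1, the other branches of the endoplasmic reticulum stress response, went the other way in C17.2. There 12 of 18 rose and 4 fell (median 0.49), and the list does not separate the branches. In C3.2, 1 rose and 4 fell (median 0.01). SDF2L1, an endoplasmic reticulum chaperone cofactor, was at 3.82 and 3.78 TPM in parental and at 12.4 and 14.0 TPM in resistant C17.2, and at 13.8 and 14.6 TPM and 16.7 and 11.1 TPM in C3.2. HERPUD1 and EDEM1, which serve degradation of misfolded protein, fell by 1.87 and by 1.42 in C17.2 and by 0.36 and by 0.69 in C3.2. XBP1 and SYVN1, the other targets that fell in C17.2, had differences of -0.42 and -0.37 there. Of the 18, only HERPUD1 is also on the list of other stress outputs. In parental cells 11 of the 18 were called lower in C17.2 than in C3.2, where 12.0% of all genes were, and 3 were called higher. SDF2L1 was thus lowest in parental C17.2, the group in which the 10 members were highest. HSPA5, which encodes the main chaperone BiP and is named here after its values were seen, rose by 1.14 in C17.2 and by 0.26 in C3.2.

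When the processing was changed in 16 ways, the counts that fell or rose in these lists stayed within 1.5 times of those above in 243 of 288 cases in C17.2 and in 203 of 288 in C3.2. In C17.2 the genes that fell numbered 18 of the amino acid list and 12 of the tRNA synthetases under each, and 17 to 19 of the other stress outputs, and 10 to 12 of the ATF6 and IRE1 targets rose. In C3.2 the genes that fell numbered 5 to 16, 0 to 8 and 1 to 13 in the first 3 lists. The lowest of these counts came from the 4 libraries of C3.2 fitted alone, in which limma called 74 of all genes. Of the other bZIP factors 6 to 14 fell in C17.2 and 0 to 7 in C3.2, and the rise of SESN1 in C3.2 lost its call under 10 of the 16.

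**Figure D5:**
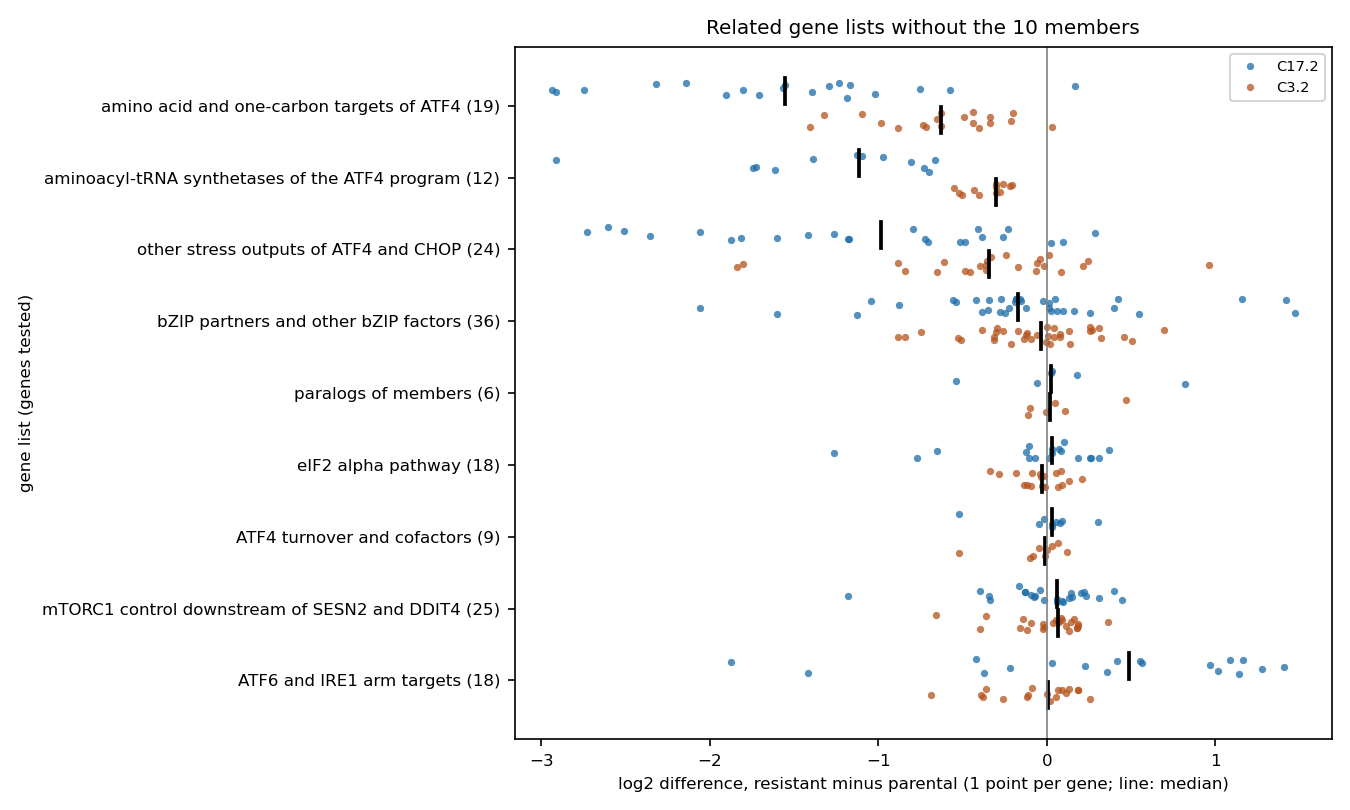
Log2 difference of resistant minus parental cells for each tested gene (1 point) of 9 related lists without the 10 members, in C17.2 (blue) and C3.2 (orange), with a line at the median. The lists of amino acid genes, tRNA synthetases and other stress outputs lie left of 0, with medians of -1.60, -1.10 and -0.98 in C17.2, whereas the ATF6 and IRE1 targets have a median of 0.49.

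Genes whose levels over the 8 libraries were most like those of ATF4 were sought among 6386 protein-coding genes with a mean of at least 10 TPM, by the root mean square difference between log2 profiles, each centred on its own mean. The 5 nearest were PLCG2 (0.048), GAB2 (0.076), YARS (0.094), RSL24D1 (0.097) and SLC7A1 (0.10). PLCG2, a phospholipase of B-cell receptor signaling, was at a mean of 23.3 TPM in parental and 13.3 TPM in resistant C17.2, and at 13.9 and 9.98 TPM in C3.2. YARS, a tRNA synthetase, and SLC7A1, an arginine and lysine importer, are also on the lists of ATF4 targets above. Among the members CEBPG (0.18) and DDIT4 (0.27) were nearest to ATF4, and CHAC1 (1.3) and STC2 (1.4) were farthest, since they moved by far more than ATF4. The measure describes 8 libraries in 4 groups and carries no test.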

How the data were processed

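RNA-seq of CTCF AID2 SEM clones was analyzed from the table of TPM per gene and library. Per the submitters' notes and methods, libraries were made after depletion of ribosomal RNA, and TrimGalore 0.6.3, STAR 2.7.9a (GRCh38) and RSEM 1.3.1 (Gencode annotation) were used for trimming, alignment and quantification. The deposited TPM had not been scaled between libraries. The labels describe single-end reads and the methods paired-end reads. The 92 ERCC rows are listed at 0 in all libraries. Small nuclear RNA genes held 31.2% to 37.6% and protein-coding genes 36.0% to 43.3% of a library's TPM, so that a shift in a few non-coding RNAs moves the TPM of all other genes. The depth of the libraries is unknown.

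From the deposited TPM, genes with at least 1 TPM in at least 1 library were kept (15614). Scaling factors were trimmed means of the log2 ratios to the mean library (30% of ratios and 5% of means trimmed from each end). Log2(scaled TPM + 1) was fitted in limma 3.58.1 (R 4.3.3) with an intensity trend, in 1 model of 4 groups, with two-sided Benjamini-Hochberg adjusted p and a threshold of 0.05. No limma-voom fit, as in the study, was made, since it takes counts. With 2 libraries against 2 an exact permutation test cannot go below p = 0.333. The fit was also run on simulated data with independent noise in each library. That setting does not address replicates from a shared culture. Samples were grouped by the clone labels. The members and the gene lists were chosen with earlier results of these data known, and per list up to 3 called genes with the largest change and a mean of at least 1 TPM, besides every tested paralog, were named. Positions came from Gencode 44 on GRCh38 (99.5% of tested genes matched by identifier), and starts from RefSeq (GRCh38.p14). The RefSeq start windows had the same letters in the GRCh38 genome read here (100%). Tables and plots used Python 3.11.15, pandas 2.3.3 and matplotlib 3.10.9. The closing section gives what changed with other scalings, pseudocounts, filters, models and sets of libraries.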

Additional observations from a re-analysis of the deposited data

Results flagged for a closer look

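In the limma interaction test adjusted over all genes, the change from parental to resistant cells differed between C17.2 and C3.2 for all 10 members. The change in C17.2 minus that in C3.2, on the log2 scale, was -0.42 for ATF4, -2.80 for ATF5, -1.54 for DDIT3, -3.29 for TRIB3, -1.14 for CHAC1, -1.43 for SESN2, -1.29 for DDIT4, -1.27 for CEBPB, -0.92 for CEBPG and -0.89 for STC2. The same test separated the clones for 19 genes named from the lists and for 9 other genes named in the text. Of all 15614 genes tested, 1548 were called in it, in either direction. The members were chosen, and most list genes were named, for their change within a clone, from which the interaction is built. These counts are therefore a description. Among bZIP factors the value was -1.22 for JDP2 and -0.53 for CEBPA, and in the eIF2α pathway it was -1.35 for PPP1R15A, -0.49 for EIF2S3 and -0.31 for EIF2S2. Among ATF4 targets it was -0.93 for GPT2, -0.76 for VLDLR, -2.34 for INHBE, -1.53 for SLC7A11, -1.93 for SLC6A9, -1.42 for ASNS, -2.71 for WARS, -1.24 for CARS and -1.18 for GARS. In the mTORC1 list it was -0.82 for TXNIP and 0.41 for SEC13, and among ATF6 and IRE1 targets it was -1.51 for HERPUD1, -0.73 for EDEM1 and 1.52 for SDF2L1. Of the other genes it was 0.88 for HSPA5, -0.78 for SLC7A1, -0.55 for YARS, -0.79 for MARS, -4.28 for AC022506.1, -0.41 for PLCG2, -0.58 for GAB2, -0.43 for RSL24D1 and -0.48 for CD79B. AC022506.1 and INHBE reached the 1 TPM needed for testing in parental C17.2 alone. Their calls are not independent of that filter. With groups of 2 libraries no single library could be tested as an outlier.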

How the results depend on the processing

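All 10 members kept their direction and their call in C17.2, and in parental C17.2 against parental C3.2, under each of 16 other ways of processing. In C3.2 they kept their direction, but CEBPG lost its call under 10 alternatives, DDIT4 under 3 and CHAC1 under 1, and ATF5 and DDIT3 gained one under 1 each. Members called in C3.2 numbered 3 in place of 6 when its 4 libraries were fitted alone, and 4 to 7 when a library was left out. The interaction lost STC2 in 8 of 15 alternatives, CHAC1 in 6, CEBPB in 5, DDIT3 in 4 and ATF4 in 1, and 6 to 10 members were called without 1 library. In resistant C17.2 against resistant C3.2, 1 member was called, 4 others on TPM as deposited, 2 with quantile normalization, 3 on TPM rescaled over protein-coding genes, 0 by limma from the 4 libraries alone (1 at an unadjusted p under 0.05) and 0 to 3 without 1 library (0 without replicate 2 of resistant C17.2, with 3 at an unadjusted p under 0.05). There, DDIT3 (0.0314), TRIB3 (0.106) and STC2 (0.118) turned higher in C17.2 on TPM as deposited. Without 1 library STC2 ranged from -0.194 to 0.109, above 0 without replicate 1 of resistant C17.2 (0.0435) or replicate 2 of resistant C3.2, and CEBPB from -0.0501, without that same library, to 0.264.

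Over all genes, 1773 were called in C3.2, 1167 with no filter and 74 from its 4 libraries alone. For the resistant cells of both clones 3177 were called, 5811 on TPM as deposited and 306 from the 4 libraries alone. Without 1 library the counts were 2372 to 4545 in C17.2 (4261 with all), 326 to 1789 in C3.2, 540 to 1748 for the interaction (1548), 1559 to 3803 for parental cells (3516) and 1120 to 2610 for resistant cells. The median of all genes on TPM as deposited was 0.13 in C17.2, 0.05 in C3.2, 0.14 between parental and 0.22 between resistant cells. The share of calls that were higher in C17.2 went from 49.1% to 75.1% there, 64.6% on protein-coding rescaling and 54.1% with quantiles, and in C3.2 from 39.3% to 57.8%, 69.7% and 50.8%. Between parental cells it went from 46.8% to 81.0% on TPM as deposited and 64.2% on protein-coding rescaling, between resistant cells from 46.0% to 90.7% and 60.9%, and for the interaction from 49.6% to 64.0% on TPM as deposited. The causes were not tested. DDIT3 summed with AC022506.1 had an interaction of -2.17 in place of -1.54. No paired analysis was possible because the labels give no number shared by parental and resistant libraries of a clone. Depth is unknown, so no limit from counting can be stated for genes near 1 TPM.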
